A study of Mus musculus with 24 samples.

Results

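The immunoglobulin, joining chain and B cell receptor genes of B cells and plasma cells were followed in RNA-seq of isolated hepatocytes from 24 male mice. The group holds 9 of the 55421 genes in the count table, chosen by gene symbol. Its members are the heavy chain constant genes Ighm, Ighg2c and Igha, the light chain constant genes Igkc and Iglc2, the joining chain gene Jchain, and the B cell surface genes Cd79a, Cd79b and Ms4a1. The mice formed 4 groups of 6, called young or old by age and ND or HFD by diet. The labels give young mice as C57BL/6N aged 6 months and old mice as C57BL/6J aged 24 months, so that age cannot be told apart from substrain. HFD was 58y1 from TestDiet with 60% of energy as fat and ND was a Teklad global chow with 18% protein, each given for 9 weeks. The study's methods name a different normal diet, and its text gives other ages, so both are uncertain and the labels are followed here. All groups went through a 2-step liver perfusion and purification of hepatocytes, and polyA RNA was sequenced in 2 batches. Batches split each group into 3 and 3 mice, apart from old ND (2 and 4). The comparisons ask how age and HFD, alone and together, alter what such preparations contain.

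B cells carry membrane immunoglobulin, usually of the mu class at first, beside the signalling chains Cd79a and Cd79b. After activation some switch to gamma or alpha heavy chains and mature into plasma cells, which secrete antibody and use the joining chain to build polymeric IgM and IgA. Hepatocytes are not antibody-forming cells, but they lie beside blood sinusoids that hold B cells, plasma cells, T cells and macrophages.

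Reads on members were few beside the whole libraries, whose totals on genes ran from 9200332 to 22185069 per mouse and were smallest in old HFD. Counts were scaled to CPM, the usual unit of counts relative to library size, with edgeR's TMM factors. Intervals given for summed reads cover counting error only, because the reads of the 6 mice of a group were pooled. They leave out the spread between mice. Reads were amplified without molecular identifiers, so the counting error itself may be larger than shown. The 12 hepatocyte markers summed to between 62369 and 175529 CPM, and between old ND and young ND 0 of them passed the edgeR test, with 3 at an unadjusted p under 0.05. Old ND replicate 4 held the lowest hepatocyte sum and the highest Kupffer cell and macrophage sum, 1651 CPM. The sum of those 12 macrophage markers was next highest in old ND replicate 3 (1137 CPM), old HFD replicate 6 (859 CPM) and old HFD replicate 4 (640 CPM). The fit without these 4 mice is given for the calls of members, for the gene lists in the main comparisons, and for chain shares and kappa segment counts, while other values are from all 24.

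Ighm (ENSMUSG00000076617) lies on chromosome 12 from 113418558 to 113422730 of GRCm38, on the reverse strand, with Ighg2c (ENSMUSG00000076612, 113285325 to 113288932) and Igha (ENSMUSG00000095079, 113254830 to 113260236) on the same strand. Igkc (ENSMUSG00000076609) is a single exon on the forward strand of chromosome 6, from 70726435 to 70726966, and Iglc2 (ENSMUSG00000076937) lies on the reverse strand of chromosome 16 from 19198396 to 19200351. Jchain (ENSMUSG00000067149) lies on chromosome 5 from 88519809 to 88527891 and Cd79b (ENSMUSG00000040592) on chromosome 11 from 106311341 to 106314762, both on the reverse strand. Cd79a (ENSMUSG00000003379) is on the forward strand of chromosome 7 from 24897381 to 24902197, and Ms4a1 (ENSMUSG00000024673) on the reverse strand of chromosome 19 from 11249675 to 11266241. Counts of 2 members are uncertain because similar genes can share reads. The longest Iglc2 transcript matched Iglc3 at 95.1% of 449 aligned bases, and Ighg2c matched Ighg2b at 87.8% of 1214 aligned bases. Iglc2 also shares 38 exon bases with the joining segment Iglj2.

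RefSeq promoter windows of GRCm38.p6 were at hand for 2 members, Jchain and Cd79a, and are shown because the joining chain marks antibody secretion while Cd79a belongs to the B cell receptor. The windows searched run from 250 bases before the start site to 50 bases from it. The stretches below cover the first 270 bases of each, at chr5:88527878-88528147 on the reverse strand for Jchain and chr7:24897247-24897516 on the forward strand for Cd79a. Capitals mark an E box (CAGGTG, or CACCTG on the other strand) and, in Cd79a, an Ets core (AGGAAGT). Both strands were searched and the matches do not overlap.
Jchain: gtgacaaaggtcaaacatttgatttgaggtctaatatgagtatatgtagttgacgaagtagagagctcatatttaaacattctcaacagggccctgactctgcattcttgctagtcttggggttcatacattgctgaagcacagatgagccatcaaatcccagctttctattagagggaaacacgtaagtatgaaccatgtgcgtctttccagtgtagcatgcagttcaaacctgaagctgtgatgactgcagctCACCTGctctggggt
Cd79a: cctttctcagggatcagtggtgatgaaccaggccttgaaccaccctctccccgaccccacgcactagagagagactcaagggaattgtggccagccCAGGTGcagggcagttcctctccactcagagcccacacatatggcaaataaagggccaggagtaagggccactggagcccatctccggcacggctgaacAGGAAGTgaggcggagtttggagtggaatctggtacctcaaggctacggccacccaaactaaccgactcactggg
The E box lies 5 bases downstream of the start site in Jchain and begins at -154 in Cd79a, where the Ets core begins at -55. The RefSeq start of Cd79a lies downstream of the gene start in GENCODE given above, so the Ets core falls within the gene as placed there. An E box was present in 20.2% of 32841 promoter windows of the same length and the Ets core in 9.35%. The octamer ATTTGCAT (1.74% of windows) and the letters CCCNNGGG (13.7%) were not in either window.

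Of the 9 members, 6 had enough counts to be tested across all 13583 genes that passed the low-count filter: Ighm, Igkc, Ighg2c, Igha, Jchain and Cd79b. The others, Cd79a, Iglc2 and Ms4a1, fell below that filter and are described by their counts. The filter used all 24 mice, so a gene that was low in young mice could enter the test through old mice alone. To compare levels between genes, CPM was divided by exon length in kilobases (RPKM). In young ND, Ighm was the highest member on this scale at 6.72 ± 4.26 RPKM (SD, n = 6), followed by Igkc at 0.724 ± 0.564. In old ND their order on the RPKM scale was the other way, with Igkc at 33.7 ± 46.1 and Ighm at 25.6 ± 23, a gap smaller than either SD. The remaining members were lower per length in old ND, from 1.44 ± 1.81 RPKM for Jchain and 1.29 ± 1.22 for Ighg2c down to 0.0762 ± 0.0558 for Ms4a1.

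**Figure D1:**
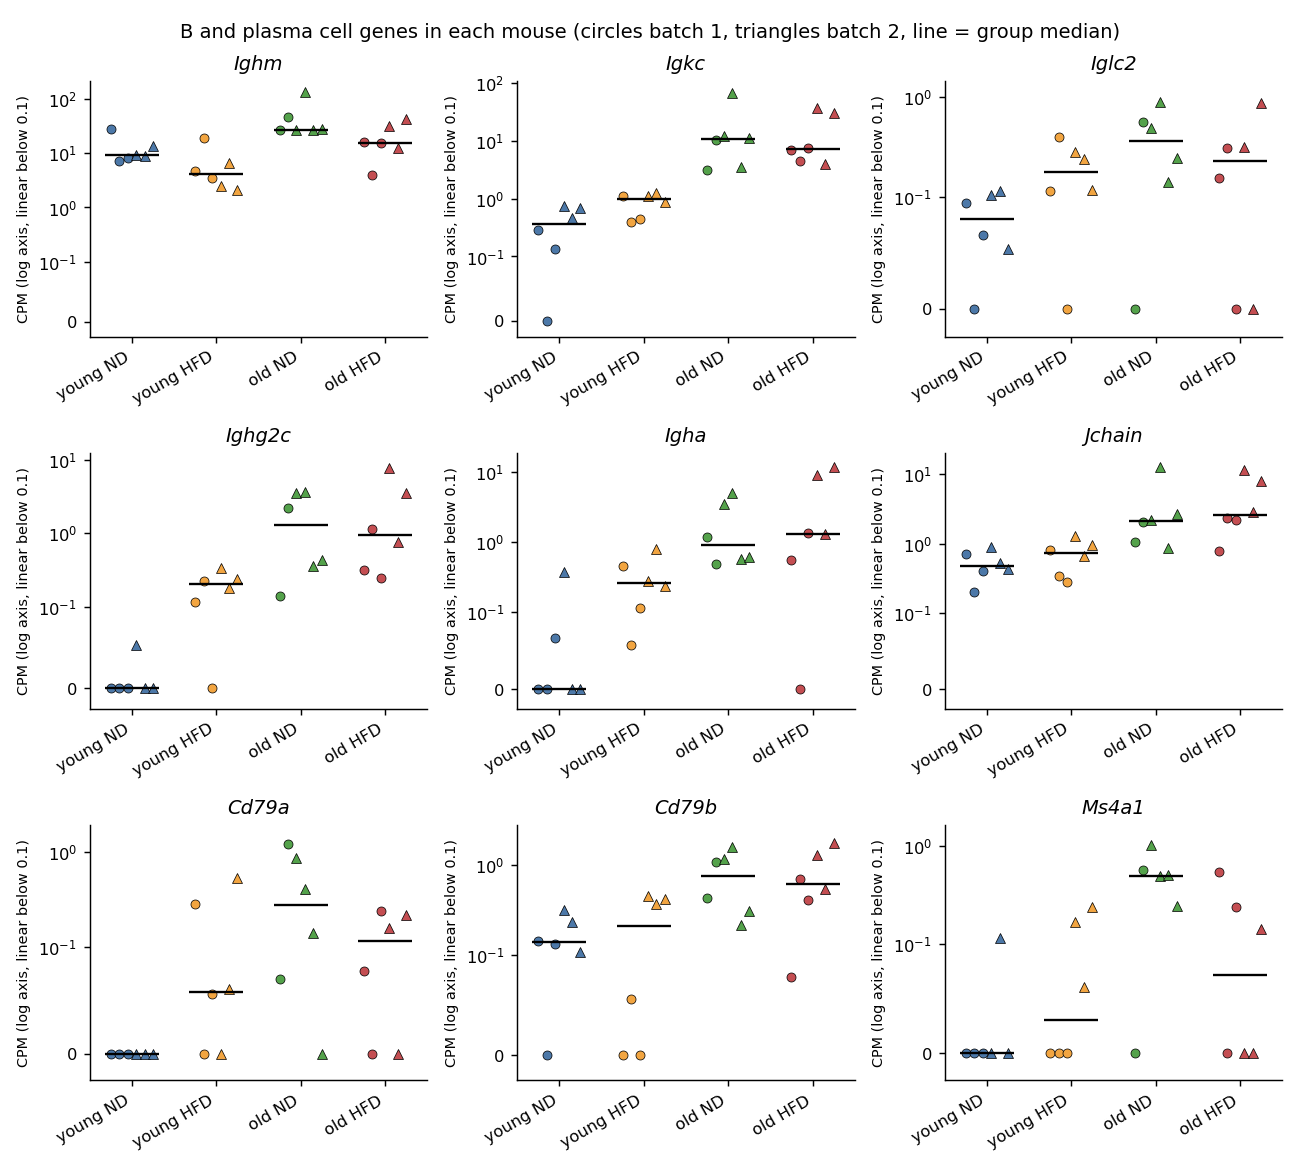
CPM of each of the 9 members (vertical log axis, linear below 0.1) in every mouse by group, with circles for batch 1, triangles for batch 2 and a line at the group median. Igkc in the old ND mice runs from 3.18 to 67.4 CPM and lies above all young ND mice, whose highest value is 0.741.

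Transcripts of antibody genes were higher with age on ND. All 6 tested members passed the test with higher levels in old ND, where 7.26% of all tested genes did so. Their median log2 fold change was 3.41 against 0.01 over all tested genes. Ighg2c, Cd79b and Igha had at most 6, 8 and 13 reads in any young mouse, so they met the filter mainly through old mice. The count of 6 and the median are thus partly set by the filter. When only old ND and young ND were fitted, 3 members could be tested and all 3 were called. CPM of old and young mice did not overlap for 3 of the 9 members (Igkc, Ighg2c and Igha), compared with 2.08% of tested genes that were higher without overlap. In bulk RNA, more cells of a type and more RNA per cell cannot be told apart.

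The kappa light chain, which pairs with most mouse heavy chains, separated the ages most clearly among the members that did not overlap. Igkc ranged from 0 to 0.741 CPM in young ND (median 0.371) and, with HFD in young mice, from 0.396 to 1.27 (median 0.991), compared with 3.97 to 36.9 in old HFD (median 7.29) and from 3.18 to 67.4 in old ND (median 10.6). Every old mouse on either diet was above every young mouse, old ND replicate 4 was the highest, and the groups of the same age overlapped. The log2 fold change of Igkc with age on ND was 5.24 (standard error, SE, 0.69, adjusted p = 0.000412 in the edgeR quasi-likelihood test after Benjamini-Hochberg correction), 5.42 in batch 1 and 5.19 in batch 2. Without old ND replicate 4 it was 4.41 (adjusted p = 0.000313, edgeR). Iglc2, a lambda light chain constant gene, had 8 reads over the young ND mice and 34 over the old ND mice, a ratio of 5.05 after scaling (95% counting interval 2.29 to 12.6). Its highest old ND value, 0.899 CPM, was in replicate 4, while old ND replicate 1 had no read.

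Ighm encodes the heavy chain of IgM and was the member with the most reads in each group. It ranged from 7.25 to 28.4 CPM in young ND (median 9.24) and, with HFD in young mice, 2.14 to 18.8 (median 4.13), compared with 3.99 to 42.7 in old HFD (median 15.7) and 26.5 to 135 in old ND (median 27.5). Of the 6 old ND mice, 5 lay between 26.5 and 46.1 CPM, and 2 exceeded young ND replicate 1, which stood above the other young ND mice. The log2 fold change with age on ND was 1.90 (SE 0.57, adjusted p = 0.0397 in the edgeR quasi-likelihood test after Benjamini-Hochberg correction), 1.34 in batch 1 and 2.33 in batch 2. Without old ND replicate 4 it was 1.31 and did not pass (adjusted p = 0.161, edgeR). It also missed the threshold without old ND replicate 2 or without any of young ND replicates 2 to 6 (adjusted p from 0.0732 to 0.0986, edgeR).

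The switched heavy chains were nearly undetected in young ND. Ighg2c, the heavy chain of the IgG2c class, had 1 read in young ND, in replicate 4, and its CPM was 0 in the other 5 mice. In old ND it ranged from 0.141 to 3.68 CPM (median 1.31), in young HFD from 0 to 0.336 (median 0.204) and in old HFD from 0.242 to 7.74 (median 0.952). Every old ND mouse was above every young ND mouse, with replicates 2, 3 and 4 above the other 3. Over all mice of a group the scaled ratio of old ND to young ND was 183, with a 95% counting interval of 32.4 to 7274 that reflects the lone read in young ND. Without young ND replicate 4 the ratio was 50.1 against a floor of 3 reads for young ND. The difference passed the test (adjusted p = 0.00208 in the edgeR quasi-likelihood test after Benjamini-Hochberg correction), and its fitted log2 value of 6.58 (SE 1.10), 7.21 in batch 1 and 6.26 in batch 2, depends on the prior count. It was 7.5 without young ND replicate 4, the mouse with that read, and 5.97 without old ND replicate 2 (adjusted p = 0.00862 and 0.00615, edgeR).

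Igha, the heavy chain of IgA, was detected in 2 of the 6 young ND mice, at 0.371 CPM in replicate 4 and 0.0663 in replicate 3. It ranged from 0.0565 to 0.788 CPM in young HFD (median 0.259), compared with 0 to 11.9 in old HFD (median 1.33) and 0.493 to 5.15 in old ND (median 0.906). Old ND and young ND did not overlap, whereas old HFD held both the highest values of the 24 mice, in replicates 4 and 6, and a mouse with no read, replicate 2. The log2 fold change of Igha with age on ND was 4.43 (SE 1.01, adjusted p = 0.00845 in the edgeR quasi-likelihood test after Benjamini-Hochberg correction), 4.94 in batch 1 and 4.21 in batch 2. Without young ND replicate 4 it was 6.17 (adjusted p = 0.00957, edgeR).

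Jchain, which links IgM and IgA into polymers, was detected in every mouse. It ranged from 0.201 to 0.900 CPM in young ND (median 0.472) and, with HFD in young mice, 0.282 to 1.29 (median 0.736), compared with 0.780 to 11.5 in old HFD (median 2.60) and 0.858 to 12.8 in old ND (median 2.13). In old ND 5 of 6 mice were above all young ND mice, and replicate 4 was far above the other 5. Jchain was higher in old ND by a log2 fold change of 2.38 (SE 0.57, adjusted p = 0.0114 in the edgeR quasi-likelihood test after Benjamini-Hochberg correction), 1.80 in batch 1 and 2.89 in batch 2. Leaving out old ND replicate 4 gave 1.68, next to the threshold (adjusted p = 0.0498, edgeR).

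The B cell surface genes were measured from few reads. Cd79b, a signalling chain of the B cell receptor, ranged from 0 to 0.318 CPM in young ND (median 0.137) and, with HFD in young mice, 0 to 0.448 (median 0.210), compared with 0.0780 to 1.73 in old HFD (median 0.614) and 0.214 to 1.55 in old ND (median 0.740). In old ND 4 of 6 mice were above all young ND mice, and replicates 5 and 6 lay within the young range. The log2 fold change of Cd79b with age on ND was 2.23 (SE 0.70, adjusted p = 0.0488 in the edgeR quasi-likelihood test after Benjamini-Hochberg correction), 2.88 in batch 1 and 1.84 in batch 2. That value lay next to the threshold, and 17 of the 24 fits that left out 1 mouse lost the call (adjusted p up to 0.170 without old ND replicate 2, edgeR). Its partner Cd79a had no read in any young ND mouse, 41 reads in old ND, 16 in young HFD and 9 in old HFD. Against a floor of 3 reads over the young ND group, Cd79a was 16.2-fold higher in old ND, with reads in 5 of the 6 mice. The exact 95% counting interval of the ratio had its lower end at 12.6. Of the 41 reads, 17 were in old ND replicate 2 and 16 in replicate 3. Without old ND replicate 2 the ratio against the floor was 11.3. Ms4a1, which encodes the B cell antigen Cd20, had 2 reads in young ND, both in replicate 5, and 44 in old ND, with reads in 5 of 6 mice. The scaled ratio for Ms4a1 was 26.1 with a 95% counting interval of 6.82 to 223, and without young ND replicate 5 it was 14.6 against the floor.

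Fewer members were called between old ND and young ND when old mice were left out, as were fewer genes in general. Leaving out the 4 mice with the highest macrophage marker sums, a choice made after seeing the data, left 4 members in the test and 1 call, Igkc. Calls over all genes in either direction went from 1155 to 94. Of these 94, 86 were higher, which is 0.633% of 13593 tested genes. Those 4 mice include 2 of the 6 in each old group, so a smaller group and less macrophage RNA cannot be told apart here. Igkc then had a log2 fold change of 4.23 (adjusted p = 0.000677 by the edgeR quasi-likelihood test after Benjamini-Hochberg correction). In that fit the log2 fold changes of Igha, Jchain and Ighm were 3.34, 1.68 and 1.35 and did not pass (adjusted p = 0.112, 0.0877 and 0.180, edgeR). In limma on the deposited FPKM values, in which Igkc was not used, 0 of 5 members passed with a pseudocount of 1 and 1 with 0.1. With a replicate block instead of batch, Ighm and Cd79b did not pass (adjusted p = 0.0585 and 0.0589, edgeR).

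With age on HFD fewer members were called, and in edgeR none of the 12 macrophage, 7 T and NK cell or 11 further B cell genes tested passed, with 3, 5 and 0 of them at an unadjusted p under 0.05. Of 3 tested neutrophil markers 1 passed, S100a9, named after its value was seen, and their summed level was 0.226 to 2.03 CPM in young HFD and 0.644 to 43.8 in old HFD, with no read of Ly6g in either. S100a9 also passed without the 4 mice of highest macrophage sums, where none of the 12 macrophage, 6 T and NK cell or 9 further B cell genes did (0, 2 and 0 at an unadjusted p under 0.05, edgeR). The part of neutrophils in the members' values was not tested. Between old HFD and young HFD 3 of the 6 tested members were higher (Igkc, Jchain and Ighg2c), where 1.82% of tested genes were, all 6 had an unadjusted p under 0.05, and the median log2 fold change of the members was 2.79 against 0.01 over all tested genes. Ighg2c, Igha and Cd79b met the filter mainly through old mice, so these values are partly set by it. In a fit of only these groups, 2 of 3 tested members were called. Igkc was the single member whose mice did not overlap, compared with 0.552% of tested genes. Its log2 fold change was 3.92 (SE 0.62, adjusted p = 0.00429 in the edgeR quasi-likelihood test after Benjamini-Hochberg correction), 3.26 in batch 1 and 4.46 in batch 2. Jchain was higher by 2.48 (SE 0.55, adjusted p = 0.0235 by the edgeR quasi-likelihood test after Benjamini-Hochberg correction), 1.84 in batch 1 and 2.96 in batch 2, and 5 of the 6 old HFD mice were above all young HFD mice. Ighg2c was higher by 3.30 (SE 0.80, adjusted p = 0.0337 by the edgeR quasi-likelihood test after Benjamini-Hochberg correction), 2.21 in batch 1 and 3.97 in batch 2, with 4 of 6 old HFD mice above all young HFD mice, and it was 2.66 without old HFD replicate 4 (adjusted p = 0.101, edgeR). Igha (3.10), Cd79b (2.01) and Ighm (1.66) had positive log2 fold changes that did not pass (adjusted p = 0.0584, 0.109 and 0.122, edgeR), and Ighm was 2.35 without young HFD replicate 2 (adjusted p = 0.0501, edgeR). Igkc was called in all 24 fits that left out 1 mouse, and it alone was called without any of young HFD replicates 2 to 6 or old HFD replicate 4. It was also the 1 of 4 tested members called without the 4 mice of highest macrophage sums, a fit with 94 calls over all genes (0.618% higher) in place of 304, with a log2 fold change of 2.93 (adjusted p = 0.00688, edgeR). Ighg2c did not pass with the replicate block (adjusted p = 0.0541, edgeR).

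**Figure D2:**
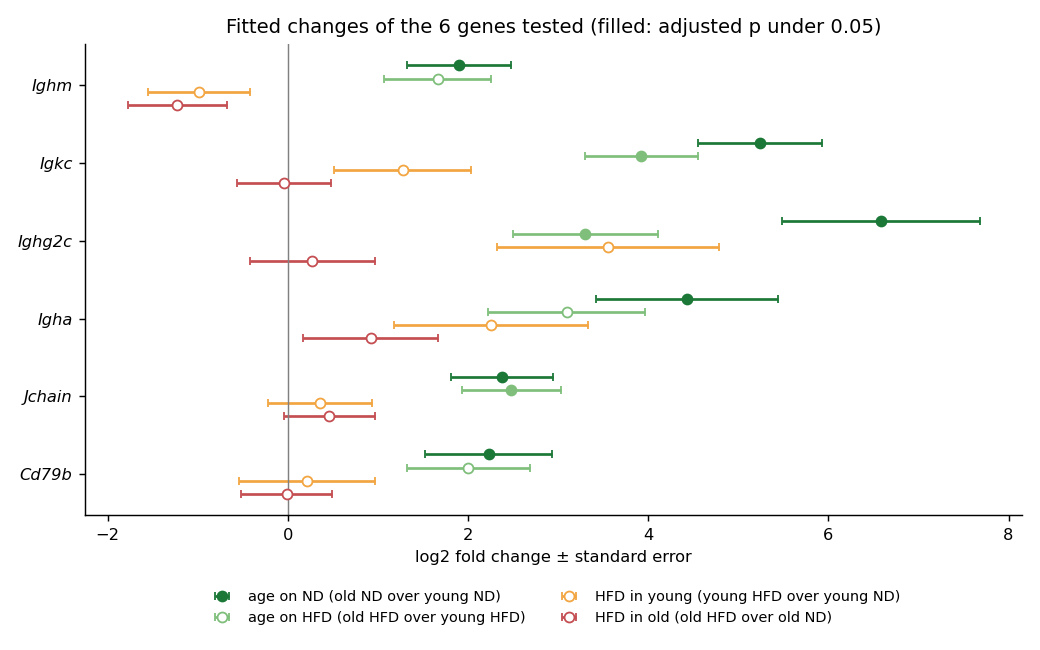
Fitted log2 fold change (horizontal axis) with its SE as the bar for the 6 tested members in the comparisons of age on each diet and of HFD at each age, with filled points where the adjusted p is under 0.05. The age comparisons lie to the right of 0 for all 6 members, from 1.66 to 6.58, while no HFD comparison is filled.

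In the main edgeR fit, HFD alone gave no call among the members at either age. Without the low-count filter, edgeR called 5 of 9 members in young mice and 1 of 9 in old mice, with 1473 and 1108 calls over all genes. Between young HFD and young ND 0 of 6 passed in edgeR (background 1.91% higher and 1.59% lower) and 0 of 9 were free of overlap (background 1.77% and 3.06%), although 2 had an unadjusted p under 0.05, Ighg2c and Igha, and DESeq2 called 1. Reads of the switched classes were nonetheless found in more young HFD mice: Ighg2c in 5 of 6 against 1 of 6 in young ND, and Igha in 6 of 6 against 2 of 6. Summed over the group, Ighg2c had 19 reads in young HFD and 1 in young ND, a scaled ratio of 19.4 with a 95% counting interval of 3.08 to 805. Without young ND replicate 4 the ratio was 5.31 against the floor. The fitted log2 fold change of Ighg2c, 3.55, did not pass (adjusted p = 0.0987 by the edgeR quasi-likelihood test after Benjamini-Hochberg correction), and neither did that of Igha, 2.26 (adjusted p = 0.226, edgeR). Ighm had the opposite sign, with a log2 fold change of -0.99 (SE 0.57, adjusted p = 0.332 by the edgeR quasi-likelihood test after Benjamini-Hochberg correction), -0.70 in batch 1 and -1.49 in batch 2. In young HFD 5 of 6 mice were below every young ND mouse for Ighm, and replicate 2, at 18.8 CPM, was the exception, without which the log2 fold change was -1.76 (adjusted p = 0.0731, edgeR). Igkc (1.28), Jchain (0.35) and Cd79b (0.21) had positive log2 fold changes that did not pass, with adjusted p of 0.351, 0.792 and 0.914 (edgeR). Of the macrophage markers 1 passed in this comparison and all 12 had an unadjusted p under 0.05. The fit without the 4 old mice of highest macrophage sums drops no young mouse but estimates a new spread, and calls over all genes between young HFD and young ND went from 475 to 1074. In it 0 of 4 tested members passed in edgeR, with 3 at an unadjusted p under 0.05, whereas 4 of 12 macrophage, 7 of 7 sinusoidal endothelial, 3 of 8 stellate cell and 2 of 9 further B cell genes were higher. The B cell genes were Ly86 (log2 fold change 2.51) and Cd24a (2.58), with adjusted p of 0.0436 and 0.0454 (edgeR), Cd24a being named after its value was seen. The part of these cells in the members' values was not tested.

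In old mice, members also overlapped between the diets. Between old HFD and old ND 0 of 6 passed in edgeR (background 1.37% higher and 1.64% lower), 0 of 9 were free of overlap (background 0.471% and 0.788%), 1 had an unadjusted p under 0.05, and DESeq2 called 0 of the 4 members it gave an adjusted p. That member was Ighm, with a log2 fold change of -1.23 (SE 0.55, adjusted p = 0.190 by the edgeR quasi-likelihood test after Benjamini-Hochberg correction), -1.68 in batch 1 and -0.85 in batch 2. In old HFD 4 of 6 mice were below every old ND mouse for Ighm. The other 5 tested members had log2 fold changes from -0.04 (Igkc) to 0.92 (Igha), each with an SE of 0.50 to 0.75. Without old ND replicate 4 Ighm was -0.53, Igkc 0.79 and Jchain 1.25, and none passed (adjusted p = 0.564, 0.316 and 0.122, edgeR). The untested Ms4a1 had 12 reads in old HFD and 44 in old ND, a scaled ratio of 0.329 (95% counting interval 0.158 to 0.633) that was 0.166 without old HFD replicate 1. Cd79a had 9 and 41, a ratio of 0.265 (0.113 to 0.553). For Cd79b the ratio of summed reads was 1.05, with bounds of 0.729 and 1.5. When the 4 mice of highest macrophage sums were left out, 0 of 4 tested members passed in edgeR, with 1 at an unadjusted p under 0.05.

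Against young ND, old HFD mice had higher Igkc, Ighg2c, Igha, Jchain and Cd79b, which made 5 of 6 tested members where 17.3% of tested genes were higher. Ighg2c, Igha and Cd79b met the filter mainly through old mice, so this count is partly set by it. In a fit of only these groups, 2 of 3 tested members were called. CPM did not overlap for 2 members, Igkc and Ighg2c, compared with 2.99% of tested genes. Igkc had a log2 fold change of 5.20 and Jchain of 2.84 (adjusted p = 4.04e-05 and 0.00125 in the edgeR quasi-likelihood test after Benjamini-Hochberg correction). Ighm did not pass at 0.68 (SE 0.56, adjusted p = 0.375, edgeR), with -0.34 in batch 1 and 1.48 in batch 2. Cd79b, at 2.22 (adjusted p = 0.0217, edgeR), did not pass with the replicate block (adjusted p = 0.0559, edgeR) or without old HFD replicate 6 or young ND replicate 6 (adjusted p = 0.0533 and 0.0544, edgeR). Without the 4 mice of highest macrophage sums, 3 of the 4 members that could be tested were called, namely Igkc, Igha and Jchain, where 10.6% of genes were called higher. Of the hepatocyte markers 1 was higher and 4 lower, and 11 of 12 macrophage markers were higher, which became 0 higher, 2 lower and 7 of 12 without the 4 mice. This comparison shares its young ND mice with the age comparison on ND. The age by diet interaction passed for 0 of 6 members and 0 of 13583 genes in edgeR, while 1 member, Ighg2c, and 1247 genes had an unadjusted p under 0.05, and DESeq2 called 4 genes and 0 members. The interaction without those mice passed for 0 of 4 members and 0 genes in edgeR, with 0 members at an unadjusted p under 0.05.

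The balance between antibody chains differed among the groups. In young ND, Ighm had between 12.8 and 100 reads for each Igkc read in the 5 mice with an Igkc read, and replicate 2 had 108 Ighm reads and none for Igkc. In old ND the range was 2.01 to 8.62, in young HFD 2.2 to 47.6 and in old HFD 0.882 to 3.11, so that old mice on either diet did not overlap young ND. Adjustment for length would scale these read ratios alike in all mice. Of the reads on all heavy chain constant genes, Ighm took 1425 of 1462 in young ND (97.5%), 668 of 760 in young HFD (87.9%), 4012 of 4850 in old ND (82.7%) and 1569 of 2417 in old HFD (64.9%). Per mouse the Ighm share was 97.3% ± 2.87 in young ND and 81.6% ± 10.7 in young HFD, compared with 72.6% ± 13.5 in old HFD and 85.6% ± 9.36 in old ND (SD, n = 6), and it reached its lowest value, 52.7%, in old HFD replicate 4. The lowest young ND mouse had 91.8%, and 6 of 6 old HFD, 5 of 6 young HFD and 3 of 6 old ND mice lay below it, so that old ND overlapped young ND.

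Per mouse, the gamma genes together took 0.934% ± 0.961 of heavy chain reads in young ND, 8.31% ± 6.11 with HFD in young mice, 9.51% ± 8.08 in old ND and 17.8% ± 9.72 in old HFD (SD, n = 6). Igha took 0.732% ± 1.44, 6.10% ± 3.69, 3.60% ± 3.09 and 8.39% ± 6.75 in the same order, and the 3 groups other than young ND differed from each other by less than the larger SD for Igha. Within old ND the gamma share ran from 1.67% to 18.7%, lowest in replicate 1 and highest in replicate 3. Shares of summed reads leaned on single mice. In young HFD the gamma share of summed reads was 5.39% and 8.33% without replicate 2, and the Igha share was 4.34% and 7.62%. In young ND the Igha share of 0.547% was 0.939% without replicate 1 and 0.0789% without replicate 4. Without the 4 mice of highest macrophage sums, Igha made up 2.00% of summed reads in old ND and 5.22% in old HFD, where it was 3.51% and 13.2% with them. The gamma share was then 7.18% and 11.5%, where it was 12.8% and 20.7%, and the Ighm share 88.8% and 81.9%. Among light chain constant reads, Igkc made up 1468 of 1540 in old ND (95.3%) and 1174 of 1223 in old HFD (96.0%), compared with 43 of 51 in young ND (84.3%) and 90 of 120 in young HFD (75.0%). These shares are descriptions of summed reads and were not tested between groups.

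**Figure D3:**
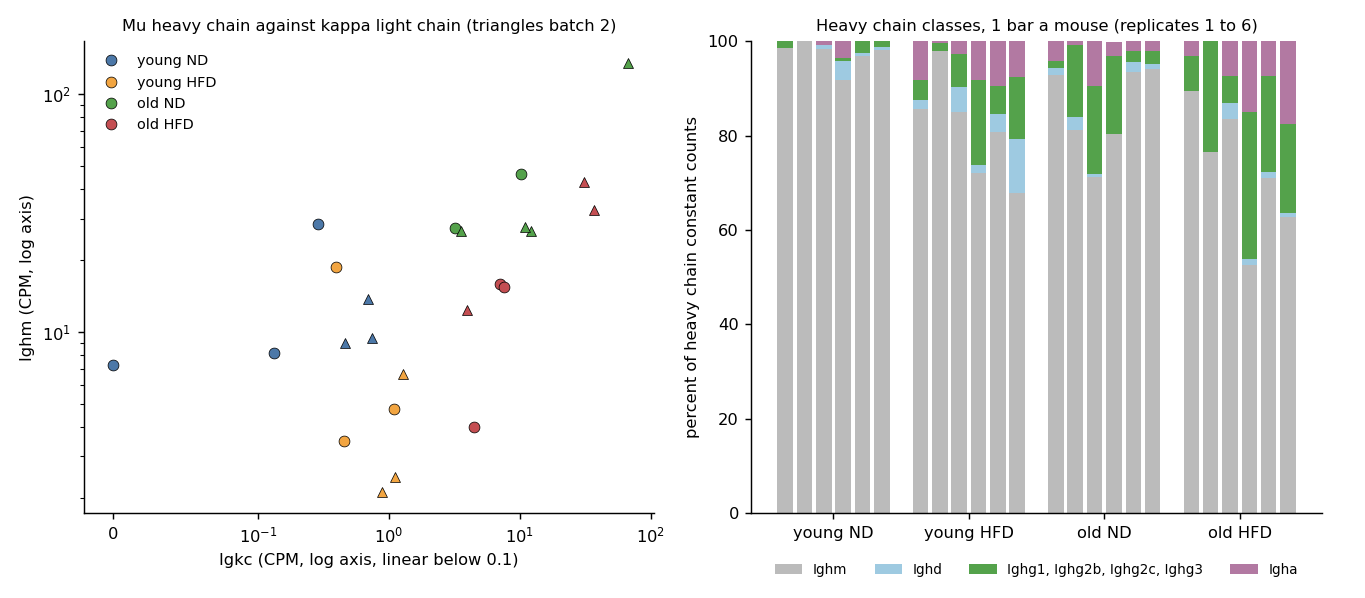
Left, CPM of Ighm (vertical log axis) against Igkc (horizontal log axis, linear below 0.1), 1 point a mouse, coloured by group with triangles for batch 2. Right, the percent of heavy chain constant reads on Ighm, Ighd, the 4 gamma genes and Igha, 1 bar a mouse, in which Ighm makes up 91.8% or more in young ND and as little as 52.7% in old HFD.

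Kappa and heavy chain variable segments, which are joined in different combinations in each B cell clone, had more reads in old ND than in young ND. Over 160 kappa variable segments in the table, reads per mouse ran from 1 to 20 in young ND and 3 to 25 in young HFD, compared with 15 to 208 in old HFD and 28 to 533 in old ND. Between 13 and 43 kappa segments had a read in an old ND mouse, compared with 1 to 8 in a young ND mouse. The range was 3 to 12 in young HFD and 7 to 28 in old HFD, so old HFD overlapped both young groups. How many segments are seen also depends on the number of reads. Without the 4 mice of highest macrophage sums, kappa reads per mouse ran from 28 to 125 in old ND and from 15 to 55 in old HFD. The leading kappa segment took 16.8% to 48.6% of a mouse's kappa variable reads in old ND, 10.9% to 46.7% in old HFD, 16.7% to 33.3% with HFD in young mice and 25% to 100% in young ND, where mice had 20 such reads or fewer. Old ND replicate 4 had 48.6% of its 533 kappa variable reads on Igkv19-93, whereas in old HFD replicate 3 that segment led with 10.9%. Igkv3-2 led in old ND replicates 1 and 6 (32.7% and 24.2%) and in old HFD replicate 6 (22.6%), and Igkv5-39 led in old ND replicates 2 and 5 (16.8% and 39.3%) and in old HFD replicate 5 (18.9%). Among heavy chain segments Ighv1-56 led in 5 of the 6 young ND mice, 3 with HFD in young mice, 2 in old ND and 2 in old HFD. Heavy chain variable reads per mouse were few, from 2 to 22 in young ND and 4 to 16 in young HFD. They ran from 30 to 207 in old ND and 7 to 87 in old HFD. In young ND replicate 2, Ighv1-56 had 1 of 2 reads. Related segments can share reads, so the leading segment of a mouse is uncertain.

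Of 26 further B cell genes, 11 could be tested and 7 were higher with age on ND. Those with the most reads were Ralgps2, a guanine nucleotide exchange factor, Cd52, a surface glycoprotein of lymphocytes, and Ly86, the partner of Cd180. Ralgps2 had a log2 fold change of 0.19 and did not pass, whereas Cd52 (3.46) and Ly86 (3.76) were higher (adjusted p = 0.351, 0.00999 and 0.00580 in the edgeR quasi-likelihood test after Benjamini-Hochberg correction). Other blood cells also express Cd52 and Ly86. Pax5, the factor that maintains B cell identity, fell below the filter, with a mean level of 0.00892 CPM in young ND and 0.211 in old ND. Elsewhere 8 of 11 were higher when old HFD was set against young ND, and 0 of 11 passed in edgeR for age on HFD or for HFD at either age. At an unadjusted p under 0.05 there were 6 for HFD in young mice and 0 in each of the other two, and 2 of 9 passed for HFD in young mice in the fit without the 4 mice.

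Of 20 plasma cell genes, 14 could be tested and 2 were higher with age on ND (Slamf7 and Cd38, named here after their values were seen). The list's median log2 fold change was -0.04. The genes with the most reads were Pdia4 and Txndc5, which fold disulfide bonds, and Sdc1, the syndecan used as a plasma cell marker. Their levels in young ND, 319 ± 50.6, 238 ± 10.6 and 238 ± 22.4 CPM (SD, n = 6), exceeded those of any antibody gene, and none passed the test in old ND (log2 fold changes -0.21, -0.26 and -0.01). Mzb1 had a mean of 0.0280 CPM in young ND and 0.0733 in old ND, and Irf4 of 0.0625 and 0.358. Tnfrsf17, which encodes the plasma cell receptor Bcma, had no read in any of the 24 mice. The cell source of the abundant Pdia4, Txndc5 and Sdc1 reads was not tested. Their values and the list's median are therefore no measure of plasma cells.

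Of the 8 other immunoglobulin constant genes, 2 could be tested and both were higher with age on ND, where 7.26% of tested genes were. All 8 together summed to at most 0.426 CPM in young ND and 0.727 in young HFD. The 2 tested genes thus met the low-count filter mainly through old mice, and their calls are partly set by it. These were Ighg1 (log2 fold change 6.76, SE 1.37, adjusted p = 0.00462 in the edgeR quasi-likelihood test after Benjamini-Hochberg correction) and Ighg2b (4.34, SE 1.12, adjusted p = 0.0170). Ighd, the delta heavy chain of naive B cells, was below the filter, at 0.109 ± 0.159 CPM in young ND and 0.528 ± 0.539 in old ND (SD, n = 6).

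Of 18 genes for signalling below the B cell receptor, 17 could be tested, 9 were higher and 0 lower with age on ND. The 3 with the most reads, Cd81, Pik3ap1 and Grb2, were at 170, 49.5 and 36.7 CPM in young ND and had log2 fold changes of -0.04, 0.21 and 0.09 that did not pass. Cd81, a tetraspanin that is also made by hepatocytes, was higher with HFD, by a log2 of 0.44 in young and 0.40 in old mice (adjusted p = 0.0169 and 0.0307 in the edgeR quasi-likelihood test after Benjamini-Hochberg correction).

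Genes of B cell survival and homing gave 2 calls among 4 that could be tested of 18. Cxcl13, the chemokine that draws B cells through Cxcr5, was at 0.324 ± 0.420 CPM in young ND and 0.506 ± 0.390 in young HFD, compared with 1.57 ± 1.28 in old HFD and 11.6 ± 14.1 in old ND (SD, n = 6). Its mice ranged from 0.857 to 37.8 CPM in old ND and from 0 to 1.06 in young ND, so the groups overlapped. Its log2 fold change with age on ND was 5.16 (SE 0.93, adjusted p = 0.00318 in the edgeR quasi-likelihood test after Benjamini-Hochberg correction), and with HFD in old mice it was -2.54 and did not pass (adjusted p = 0.0761, edgeR). Cxcl12 and S1pr1, at 274 and 78.2 CPM in young ND, had log2 fold changes of -0.12 and -0.36 in old ND that did not pass.

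Of 13 genes used to describe age-associated B cells, 9 could be tested and 4 were higher with age on ND. The most abundant, Itgb1, Cst3 and Fas, were widely expressed at 176, 98.6 and 17.1 CPM in young ND and did not pass (log2 fold changes -0.05, 0.10 and 0.32). Tbx21, the transcription factor of these cells, had no read in young ND. Of 8 class switch and germinal centre genes 4 could be tested and 1 was higher, Ung, which removes uracil from DNA, by a log2 fold change of 1.03 (adjusted p = 0.0134 in the edgeR quasi-likelihood test after Benjamini-Hochberg correction). Bcl6 and S1pr2, with the most reads of that list beside Ung, had log2 fold changes of -0.29 and 0.03 that did not pass. Rgs13, a regulator of G protein signalling, had no read in any mouse.

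Of 8 immunoglobulin receptor genes all could be tested and 5 were higher with age on ND. Pigr, which carries polymeric IgA and IgM across hepatocytes and other epithelia, was the most abundant, at 1817 ± 280 CPM in young ND and 1798 ± 149 in old ND (SD, n = 6), and did not pass. Fcgrt, the receptor that rescues IgG from breakdown, had a log2 fold change of -0.14 with age on ND and was higher by 0.54 with HFD in old mice (adjusted p = 0.570 and 0.0245 in the edgeR quasi-likelihood test after Benjamini-Hochberg correction). Fcgr2b, an inhibitory IgG receptor that sinusoidal endothelium also carries, was higher in old ND by 1.46 (adjusted p = 0.0487, edgeR).

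Without the 4 mice of highest macrophage sums, the gene lists gave fewer calls with age on ND in edgeR, as genes did in general. The counts were 0 of 9 further B cell genes, 0 of 14 plasma cell genes, 0 of 17 receptor signalling genes, 0 of 3 survival and homing genes, 0 of 9 age-associated genes, 0 of 8 immunoglobulin receptors and 0 of 4 class switch genes. At an unadjusted p under 0.05 there were 4, 2, 8, 2, 4, 4 and 1 in that order. Cxcl13 had a log2 fold change of 4.14, Ly86 of 2.28, Cd52 of 2.34, Ung of 0.79 and Fcgr2b of 1.07 (adjusted p = 0.0864, 0.197, 0.237, 0.0877 and 0.244, edgeR). Ighg1 and Ighg2b fell below the filter. The calls of Cd81 and Fcgrt for HFD in old mice were also lost, at log2 fold changes of 0.36 and 0.43 (adjusted p = 0.0874 and 0.11, edgeR), while Cd81 still passed for HFD in young mice at 0.45 (adjusted p = 0.00660, edgeR).

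The tested members varied together across mice. Over 24 mice, after group and batch means of log2 CPM were removed, the 15 pairs of tested members had Pearson correlations from 0.20 to 0.79 (median 0.57). Igkc and Jchain were the closest pair and Ighm and Cd79b the most distant. The mice share library depth and the share of other cells, so these values are given as a description. Of 13573 tested genes outside the members and the immunoglobulin segments, the 5 with the most similar pattern to the members' mean z-score of log2 CPM were B4galt6, Tcf4, Pros1, Unc93b1 and Cyp4f16. Their Pearson r over 24 mice was 0.92, 0.92, 0.91, 0.90 and 0.89, and Spearman's rho was 0.90, 0.89, 0.88, 0.84 and 0.82. Without old ND replicate 4 and old HFD replicate 4, the 2 mice farthest from the median, r was 0.89, 0.87, 0.85, 0.84 and 0.83. Pros1, the anticoagulant protein S, was at 49.5 ± 5.96 CPM in young ND and 83.3 ± 24.5 in old ND (SD, n = 6). Tcf4, an E protein transcription factor, was at 11 ± 1.73 and 26.2 ± 11 CPM.

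Markers of other non-parenchymal cells were also higher with age on ND. All 12 Kupffer cell and macrophage markers passed, led by Cd5l and Lyz2, and their sum ran from 2.22 to 103 CPM in young ND and 19.2 to 259 in young HFD, compared with 113 to 859 in old HFD and 79.1 to 1651 in old ND. Of 7 tested T and NK cell markers, among which Ccl5 and Cd4 were the most abundant, 3 were higher, and the sum of all 17 ran from 0.464 to 2.91 CPM in young ND and 1.93 to 19.5 in old ND. Calls were also made for 3 of 3 tested neutrophil markers, 7 of 8 stellate cell markers and 3 of 7 sinusoidal endothelial markers, with 0 of 3 dendritic and 0 of 2 cholangiocyte markers, although 2 of each had an unadjusted p under 0.05 in edgeR. No defining macrophage marker was at 0 in a group, whereas Gzmk and Ncr1 had no read in young ND. Of 3 tested erythroid markers, Alas2 was lower. In young ND the macrophage sum was 2.22 to 5.83 CPM in batch 1 and 57.6 to 103 in batch 2, and Igkc in these mice was 0 to 0.284 CPM in batch 1 and 0.458 to 0.741 in batch 2, also without overlap. Without the 4 mice of highest macrophage sums, 0 of 12 macrophage, 0 of 3 neutrophil, 0 of 6 T and NK cell, 0 of 7 endothelial and 1 of 8 stellate cell markers passed in edgeR, with 11, 1, 3, 4 and 8 at an unadjusted p under 0.05. The part of these cells in the differences of the members was not tested beyond the fits without the 4 mice above.

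**Figure D4:**
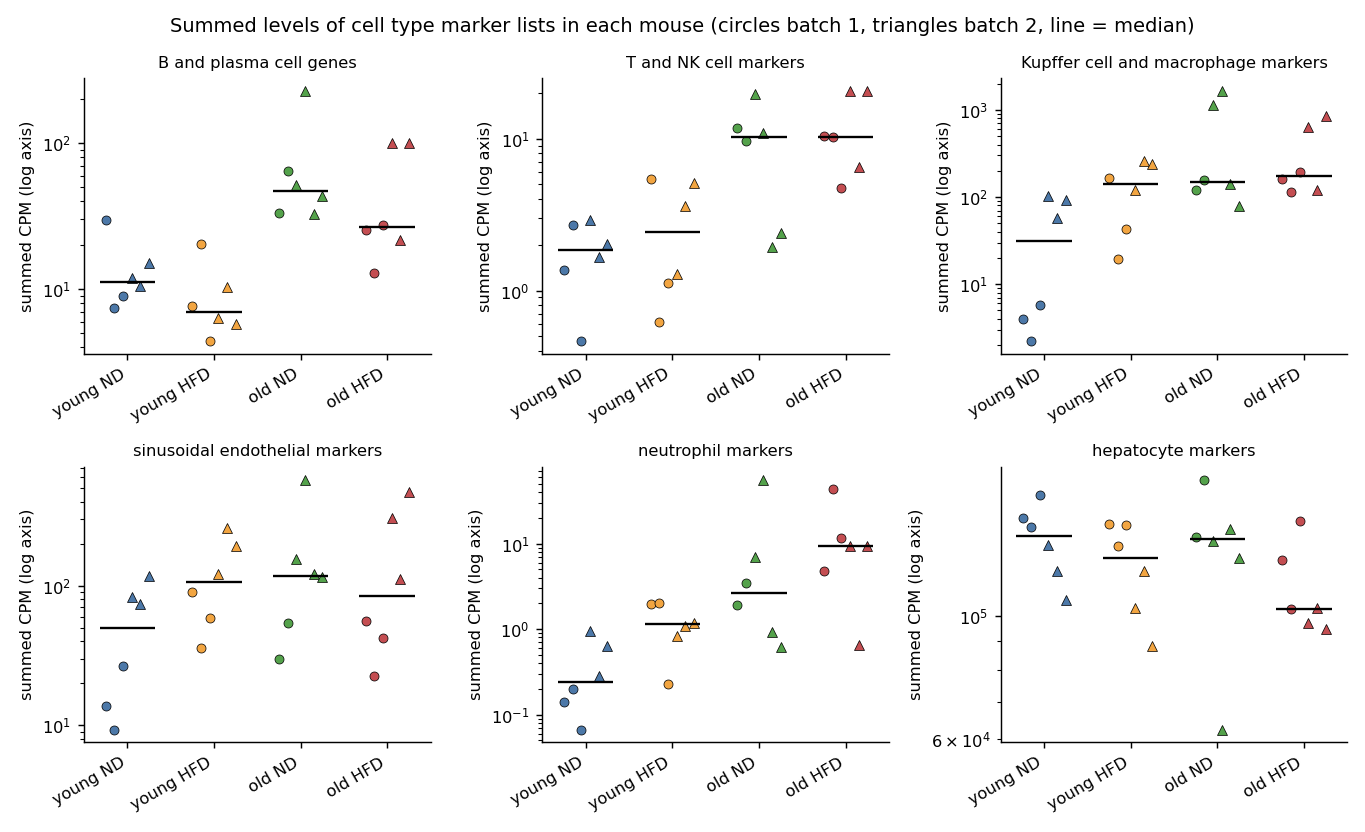
Summed CPM (vertical log axis) of the 9 members and of 5 marker lists in every mouse by group, with circles for batch 1, triangles for batch 2 and a line at the group median. The members' sum is 33.0 to 228 CPM in old ND and 7.45 to 29.7 in young ND, and old ND replicate 4 is the highest mouse for the members and for macrophage markers and the lowest for hepatocyte markers.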

How the data were processed

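The authors aligned reads to mm10 with Gencode annotation using STAR 2.7.3a, counted them with HTSeq 0.11.2 per the labels and deposited whole-number counts per gene without normalization. Deposited FPKM came from CuffLinks and was adjusted between batches with ComBat according to the table's name. Handling of strand was not given in the sources used here. Totals of 9200332 to 22185069 counts per mouse limit precision for genes of few reads.

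Counts of 24 mice were fitted in edgeR 4.0.16 (R 4.3.3) with TMM scaling, the filterByExpr minimum count of 10 by group, terms for group and batch, quasi-likelihood F tests and Benjamini-Hochberg adjustment over 13583 genes at 0.05, and the code was tested on simulated data. CPM used TMM-scaled library sizes, log2 CPM a prior count of 2, and RPKM the exon length in GENCODE vM21 of GRCm38 (mm10). Counting intervals are exact (Clopper-Pearson, 95%). Group and batch came from the labels, and mice of a group were separate samples whose counts differed beyond sampling noise. Replicate numbers belong to different mice. Alternatives used DESeq2 1.42.0, RLE factors, no filter, no batch term, a replicate block, only the groups compared, limma 3.58.1 on log2(FPKM + 1) or + 0.1, and each mouse left out. Named were all members, the 3 most abundant genes of each B cell, plasma cell or immunoglobulin list, up to 2 of each other marker list, and the 5 genes most like the members. Other genes and leading segments were named after their values were seen. Members and lists were chosen with earlier results of these data known. Columns of either table with no matching sample numbered 0.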

Additional observations from a re-analysis of the deposited data

Results flagged for a closer look

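Within groups of 6, the highest or lowest mouse of each member was compared with its neighbours by Dixon's test at its 95% critical value. Of 36 sets of 6 values, 9 stood out, where chance gives about 1 in 20 for normally distributed values. The rate for skewed CPM with many values at 0 was not measured. Old ND replicate 4 was the highest mouse of its group for 3 of these, with 135 CPM of Ighm where the next mouse had 46.1, 67.4 CPM of Igkc where the next had 12.2, and 12.8 CPM of Jchain where the next had 2.69. The same mouse had the highest macrophage marker sum (1651 CPM) and the lowest hepatocyte marker sum (62369 CPM) of all 24, and the part of that in its antibody transcripts was not tested. Old ND replicate 3 had 1137 CPM of macrophage markers with 26.5 CPM of Ighm and 12.2 CPM of Igkc.

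Ighm also stood out in the young groups without the other antibody genes. Young ND replicate 1 had 28.4 CPM of Ighm (next 13.8) with 6 Igkc reads and a macrophage marker sum of 4.02 CPM. Young HFD replicate 2 had 18.8 CPM of Ighm (next 6.67) with 7 Igkc reads. Old HFD replicate 6 had 0.864 CPM of Iglc2 (next 0.316). In the remaining sets a mouse stood out because others had few or no reads: young ND replicate 4 for Igha (0.371 CPM) and for Ighg2c (0.0529 CPM, a single read), and young ND replicate 5 for Ms4a1 (0.115 CPM, 2 reads).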

How the results depend on the processing

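The 6 tested members gave 1145 fitted values under the alternatives, of which 1108 kept the sign of the reported value, 67 lost their call and 16 gained one. No call changed direction. Between old ND and young ND, 6 members were called, compared with 3 when only these groups were fitted, in which 3 members passed the filter, 0 and 1 in limma on FPKM with a pseudocount of 1 and 0.1, and 1 without the 4 mice of highest macrophage sums. Between old HFD and young HFD, 3 were called, compared with 5 without a filter, 1 without a batch term, 0 and 1 in limma, and 1 without those 4 mice. Between old HFD and young ND, 5 were called, compared with 2 when only these groups were fitted, 3 in limma with either pseudocount and 3 without the 4 mice. Between young HFD and young ND, 0 were called, but 1 in DESeq2 and 5 without a filter. Without a filter 1 member was called between old HFD and old ND and 2 for the interaction. The cause of these shifts was not tested beyond the members that passed each filter. Leaving out 1 mouse gave 4 to 6, 1 to 4, 4 to 5, 0 to 0, 0 to 0 and 0 to 0 calls in those comparisons, in the order given above with the interaction last. Without any of young HFD replicates 2 to 6 or old HFD replicate 4 the second count was 1.

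Same-numbered mice had a mean correlation of 0.18 in their deviations from group means and -0.05 once batch means were removed, so the numbers were not taken to pair them. With the replicate block in place of batch, members called were 4, 2, 4, 0, 0 and 0 in the same order. A fit of only the groups compared does not exist for the interaction. Over all genes, calls between old ND and young ND were 1155, compared with 1676 in DESeq2, 2053 without a filter, 628 without a batch term, 123 and 423 in limma, and 94 without the 4 mice of highest macrophage sums.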
